A study of Mus with 12 samples.

Results

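The genes described here are the globin genes of the mouse and Ahsp, a set of 9 gene names: the alpha-like genes Hba-a1, Hba-a2 and Hba-x, the beta-like genes Hbb-bs, Hbb-bt, Hbb-bh1, Hbb-bh2 and Hbb-y, and Ahsp. Rows with these names were taken from a whole blood expression table of 25247 genes, and 8 of the 9 had a row. Ahsp was not analysed here. Of the 8 genes, 4 passed the filter on low values used for testing (at least 1 FPKM in at least 3 libraries) and these were the adult globins Hba-a1, Hba-a2, Hbb-bs and Hbb-bt. FPKM is the number of fragments divided by the length of the gene and by the size of the library, and 1 kFPKM is 1000 FPKM.

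Blood was taken on day 30 from female BALB/c mice, bought at 6 weeks of age, and gave 12 libraries in 4 groups of 3. The paper describes groups of 6 mice and does not say which mice the libraries came from. Each library is taken here to be 1 mouse. The Solvent group had only the vehicle, a mixture of acetone and olive oil, on the shaved back. The DNCB group was sensitised with 1% 2,4-dinitrochlorobenzene, a contact allergen used to model atopic dermatitis, and challenged repeatedly with 0.5%. Both treated groups had the same DNCB course and received 2000000 human umbilical cord mesenchymal stem cells (MSCs) at each of 4 times (day 13, then 17, 21 and last 25), as 100 µL under the skin (scMSC) or as 50 µL under the skin and 50 µL into the tail vein (scivMSC). Every comparison with DNCB therefore shares the same 3 DNCB libraries, and every comparison with Solvent the same 3 Solvent libraries. No group received the cells without DNCB, and no group received the injections without cells.

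Haemoglobin is built from alpha-like and beta-like globin chains that each hold a haem group, and red cell precursors make both kinds of chain in near balance. The genes of each kind lie in a cluster, in which embryonic genes are used first and adult genes take over as blood formation moves to the fetal liver and the bone marrow. Circulating reticulocytes keep globin mRNA after the nucleus is lost, so globin transcripts dominate whole blood RNA unless they are removed. Ahsp encodes a chaperone of free alpha chains. The adult alpha genes are nearly identical in sequence, and so are large parts of the adult beta genes, so how reads were divided within each pair is uncertain. Hbb-bs and Hbb-bt are names from the haplotype of the reference strain C57BL/6, whereas BALB/c mice carry the diffuse haplotype. What this did to the read assignment was not tested.

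The libraries held between 52.2 and 65.1 M estimated counts (M, 1000000), and the 4 adult globins took between 78.4% and 89.0% of them. The marker genes of the main blood cells were all measured, with Cx3cr1 at 0 in 1 library and no other marker at 0. The 6 neutrophil markers, all of which passed the filter, summed to 212 to 436 FPKM in Solvent, 6352 to 10010 in DNCB, 518 to 668 in scMSC and 201 to 613 in scivMSC. The erythroid list, of which 8 of 10 genes passed, summed to 598 to 789, 478 to 699, 472 to 700.1 and 703 to 855 FPKM in the same order. Platelet markers (5 of 5) summed to 359 to 569, 551 to 745, 674 to 873 and 677 to 788 FPKM. T cell markers (5 of 5) summed to 26.8 to 45.1, 10.6 to 16.5, 13.5 to 19.6 and 3.69 to 9.54 FPKM. B cell markers (4 of 4) summed to 36.5 to 116, 10.3 to 30.2, 11.3 to 15.6 and 2.99 to 7.08 FPKM, and monocyte markers (3 of 4) to 3.77 to 11.3, 12.6 to 23.9, 3.80 to 5.34 and 0.846 to 2.50 FPKM. White cell markers thus moved with the groups, and their part in the globin values was not tested. In whole blood, fewer cells of a type and less RNA per cell cannot be told apart.

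The 8 genes split into 4 that were among the most abundant transcripts of the blood and 4 that were at or near 0. Averaged over the 12 libraries, Hba-a1 was at 343 kFPKM, Hbb-bs at 311 kFPKM, Hba-a2 at 207 kFPKM and Hbb-bt at 199.7 kFPKM. Hbb-y, the embryonic epsilon-like gene, was at 0.302 FPKM, and Hbb-bh2, Hbb-bh1 and Hba-x were each detected in 1 library only. In the alpha-like cluster on chromosome 11 the order along the direction of transcription was Hba-x (positions 32276400 to 32278116, plus strand), Hba-a1 (32283511 to 32284465) and Hba-a2 (32296489 to 32297298). In the beta-like cluster on chromosome 7, on the minus strand, it was Hbb-y (103851749 to 103853216), Hbb-bh1 (103841637 to 103843164), Hbb-bh2 (103839124 to 103840520), Hbb-bs (103826534 to 103827928) and Hbb-bt (103812524 to 103813996). These are the positions of the deposited table, which place 99.9% of 21414 genes matched by symbol on the same-named gene of GRCm38.p6, although the submitters' notes name mm8. In both clusters the genes first in order were near 0 and the last 2 carried the signal.

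**Figure D1:**
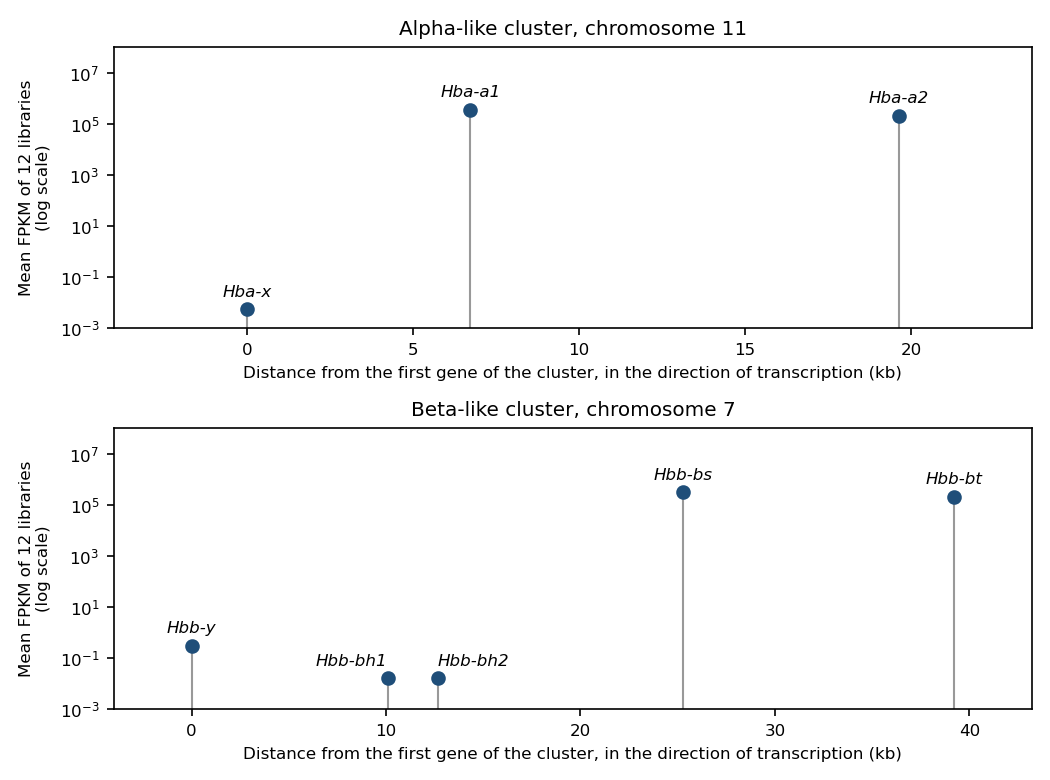
Mean FPKM over 12 libraries (points, log scale) of the 3 alpha-like and 5 beta-like globin genes with a row, against the distance in kb from the first gene of each cluster in the direction of transcription. Hba-a1, Hba-a2, Hbb-bs and Hbb-bt lie between 199.7 and 343 kFPKM, while Hba-x, Hbb-y, Hbb-bh1 and Hbb-bh2 lie at or under 0.302 FPKM.

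The order of the 4 adult genes was partly fixed from mouse to mouse. Hba-a1 was higher than Hbb-bs in 10 of 12 libraries, at 1.12 ± 0.144 times its FPKM (SD, n = 12). Hbb-bs was higher than Hba-a2 in 12 of 12 libraries, and the lowest Hbb-bs value, 262 kFPKM, was above the highest Hba-a2 value, 248 kFPKM. Hba-a2 was higher than Hbb-bt in 7 of 12 libraries, with a ratio of 1.05 ± 0.211 (SD, n = 12), so these neighbours did not differ beyond their spread. Each chain had 1 more and 1 less abundant adult gene.

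Hba-a1, the first adult alpha gene, was at 296, 341 and 300.2 kFPKM in the Solvent libraries and at 333, 329 and 345 kFPKM in the DNCB libraries. It was at 356, 380.0 and 355 kFPKM in scMSC and at 348, 369 and 371 kFPKM in scivMSC. All 6 libraries of the MSC-treated mice were above all 6 libraries of the other mice, by a narrow margin: the lowest scivMSC value, 348 kFPKM, lay just over the highest DNCB value, 345 kFPKM. The group means were 312 ± 25.1, 335 ± 8.34, 364 ± 14.2 and 362 ± 12.6 kFPKM (SD, n = 3 each).

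Hba-a2, the other adult alpha gene, encodes the same chain or nearly so. It was at 195, 223 and 239 kFPKM in Solvent, 187, 211 and 248 kFPKM in DNCB, 239, 243 and 156 kFPKM in scMSC and 173, 203 and 169.6 kFPKM in scivMSC. The groups overlapped throughout. The lowest of the 12 values was that of scMSC replicate 3, whose Hba-a1 value was close to the rest of its group. The means were 219 ± 22.2, 216 ± 30.7, 212 ± 49.3 and 182 ± 18.2 kFPKM (SD, n = 3 each), and Hba-a2 varied more over the 12 libraries, with a coefficient of variation of 15.3%, than Hba-a1, at 7.60%.

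Hbb-bs, the more abundant adult beta gene, was at 319, 323 and 329.5 kFPKM in the Solvent libraries. It was at 319.9, 262 and 265 kFPKM in DNCB, 269 and 295 and 349 kFPKM in scMSC, and 316, 322 and 356 kFPKM in scivMSC. Solvent was the tightest group, and 2 of the 3 DNCB libraries and scMSC replicate 1 were the 3 lowest values. The means were 324 ± 5.17, 282 ± 32.6, 304 ± 40.5 and 331 ± 21.4 kFPKM (SD, n = 3 each), with overlap between every pair of groups.

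Hbb-bt, the less abundant adult beta gene, was at 187, 192 and 198 kFPKM in Solvent, 189.9, 181 and 187 kFPKM in DNCB, 214, 178 and 209.6 kFPKM in scMSC and 226, 235 and 200.0 kFPKM in scivMSC. The 3 scivMSC libraries were above every Solvent and DNCB library, while the scMSC libraries spanned from the lowest of the 12 values to the third highest. The means were 192 ± 5.38, 186 ± 4.75, 200.5 ± 20.0 and 220.3 ± 18.3 kFPKM (SD, n = 3 each).

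**Figure D2:**
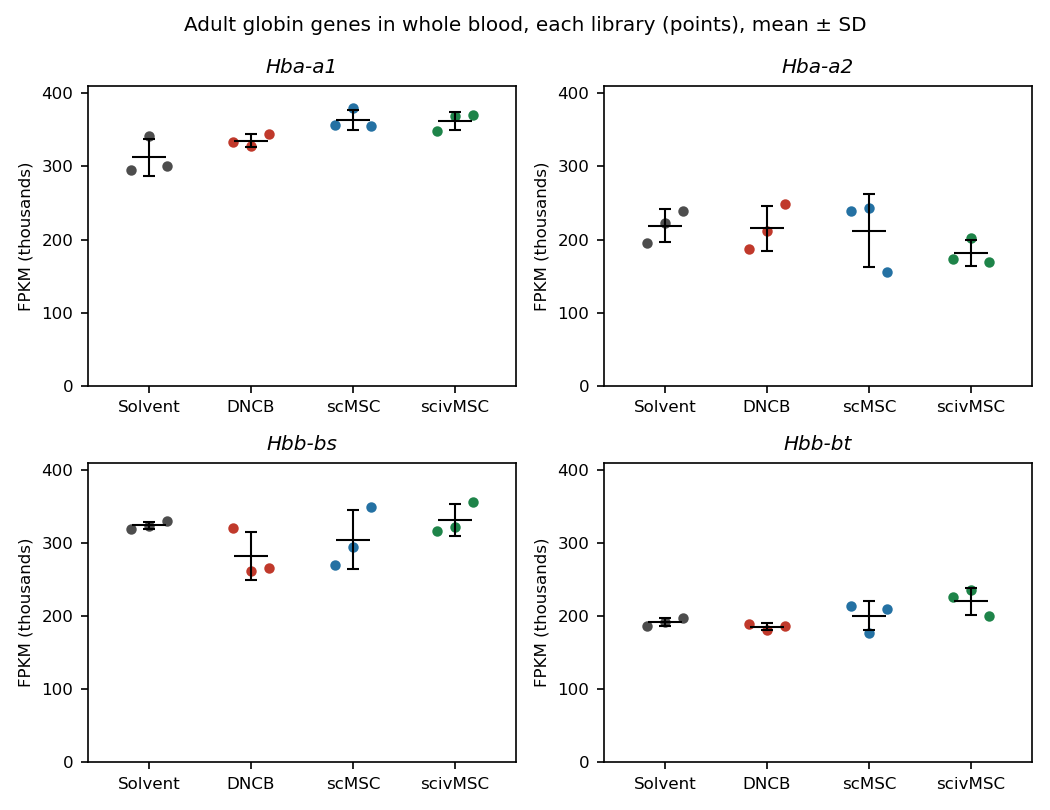
kFPKM (1000 FPKM; vertical axis, from 0) of the 4 adult globin genes in each of the 12 libraries (points), by group on the horizontal axis, with the mean and SD of each group of 3 (black). Hba-a1 lies between 348 and 380.0 kFPKM in the MSC-treated mice and between 296 and 345 kFPKM in the others, and Hba-a2 shows the widest scatter.

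The question behind the group comparisons was whether DNCB and the 2 routes of MSC injection altered the blood transcriptome. Each gene was tested with edgeR's quasi-likelihood test on the estimated counts, scaled to each library's total, and a gene was called at a Benjamini-Hochberg adjusted p under 0.05 with a fold over 2. None of the 4 adult globins was called in any of the 6 comparisons. Of all 5527 genes tested, 20.5% were called in DNCB versus Solvent, 26.1% in scMSC versus DNCB, 63.4% in scivMSC versus DNCB, 30.8% in scivMSC versus scMSC, 0.651% in scMSC versus Solvent and 61.8% in scivMSC versus Solvent. Some of these shares rest on single libraries or on which other groups are in the fit. The 36 genes called for scMSC versus Solvent became 4 without Solvent replicate 1, scMSC replicate 2 or scMSC replicate 3, 566 without scivMSC replicate 1 and 824 without scivMSC replicate 2. The 1701 called for scivMSC versus scMSC became 512 without scMSC replicate 1 and 2944 without scivMSC replicate 1. Fitted on only the 6 libraries compared, the counts were 1564, 1928, 3173, 4, 1149 and 2990 in the order of the shares above. At an adjusted p under 0.05 of any fold in edgeR the globins numbered 0, 0, 2, 0, 0 and 2 in the same order. The shares of all genes at that threshold were 21.2%, 27.5%, 67.8%, 32.2%, 0.669% and 65.5%. Limma on log2(FPKM + 1) also called 0 in each comparison, where it called 16.4%, 17.6%, 36.3%, 6.06%, 3.82% and 32% of all genes. DESeq2, which scales by its own size factors, called 0, 0, 4, 3, 0 and 4 of the 4 globins, beside 28.2%, 22.2%, 40.4%, 19.7%, 10.1% and 36.7% of all genes.

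Total scaling limits how far the globins can rise together. Adult globins made up 81.2% of counts in DNCB on average, so at a fixed total their sum could rise by at most 1.23-fold from there, and 1.20-fold from Solvent. A fall, or a rise of 1 gene at the cost of another, is not limited in this way. Without regard to fold, 2 of the 4 had an adjusted p under 0.05 for scivMSC versus DNCB, both higher, where 67.8% of all genes did and 2.88% were higher. Hbb-bt rose by 0.24 ± 0.08 log2 units (SE; adjusted p = 0.0115) and Hbb-bs by 0.23 ± 0.09 (SE; adjusted p = 0.0350). The call for Hbb-bs was lost without Solvent replicate 1, DNCB replicate 2 or 3 or scivMSC replicate 3 (highest adjusted p = 0.146), and that for Hbb-bt without scivMSC replicate 2 (adjusted p = 0.0710). In the same comparison Hba-a1 was at 0.11 (adjusted p = 0.131) and Hba-a2 at -0.25 (adjusted p = 0.112).

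For scivMSC versus Solvent, 2 of the 4 again had an adjusted p under 0.05, both higher, where 65.5% of all genes did and 4.11% were higher. These were Hba-a1, at 0.21 ± 0.06 (SE; adjusted p = 0.00667), which kept an adjusted p of at most 0.0406 without any 1 library, and Hbb-bt, at 0.19 ± 0.08 (SE; adjusted p = 0.0357). The call for Hbb-bt was lost without Solvent replicate 1 or 2 or scivMSC replicate 1 or 2 (highest adjusted p = 0.168). Hba-a2 was at -0.27 (adjusted p = 0.0910) and Hbb-bs at 0.03 (adjusted p = 0.778). In scMSC versus Solvent, where 0.669% of all genes had an adjusted p under 0.05, a share that moves with single libraries as given above, the lowest was that of Hba-a1, at 0.21 ± 0.06 (SE; adjusted p = 0.0953).

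No globin passed an adjusted p of 0.05 in the other 3 comparisons. For DNCB versus Solvent, where 21.2% of all genes did, Hbb-bs was at -0.20 ± 0.09 (SE; adjusted p = 0.137), with a 95% interval of 0.765- to 0.996-fold, and Hba-a1 at 0.10 ± 0.06 (SE; adjusted p = 0.248). For scMSC versus DNCB (27.5% of all genes) the 4 genes lay between -0.03 and 0.10, and for scivMSC versus scMSC (32.2%) between -0.22 and 0.14. By FPKM alone, the groups did not overlap in 0, 1, 2, 0, 1 and 2 of the 4 globins over the 6 comparisons in the order above, beside 41.5%, 55.3%, 73.3%, 50.5%, 47.6% and 68.7% of all genes. Hba-a1 alone was fully higher in scMSC than in DNCB and in scMSC than in Solvent, where 5.54% and 7% of all genes were. Hba-a1 and Hbb-bt were both fully higher in scivMSC than in DNCB and in scivMSC than in Solvent, against 5.41% and 6.1% of all genes.

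Set against the other genes of the blood instead of the library total, the adult globins lay higher in scivMSC than in DNCB. Whether they were called depended on the scaling. The non-globin part of the summed FPKM was 82656 ± 9262 in DNCB and 58624 ± 8619 in scivMSC (SD, n = 3 each), and the median log2 fold change over all tested genes was -1.53 at total scaling. TMM scaling, which centres the bulk of the genes, moved that median to 0.04. The scivMSC libraries also held the fewest genes with at least 4 counts, 14974, 11806 and 13159, beside 15195 to 17350 in the other 9 libraries, and replicate 2 was the lowest. The part of this in the TMM values was not tested. Under TMM all 4 adult globins were called higher for scivMSC versus DNCB, where 39.4% of all genes were called and 20.6% were higher: Hbb-bt at 1.95 ± 0.45 (SE; adjusted p = 0.00254), Hbb-bs at 1.92 ± 0.48 (SE; adjusted p = 0.00435), Hba-a1 at 1.81 ± 0.49 (SE; adjusted p = 0.00703) and Hba-a2 at 1.47 ± 0.49 (SE; adjusted p = 0.0222). All 4 were also called higher for scivMSC versus Solvent, between 1.26 and 1.73, where 35.8% of all genes were called and 22.4% were higher. Without scivMSC replicate 2, a choice made after seeing the data, 3 of the 4 were still called in each of these comparisons, and Hba-a2 was at 1.02 versus DNCB (adjusted p = 0.0863) and at 0.81 versus Solvent (adjusted p = 0.169). Hba-a2 versus DNCB was also lost without DNCB replicate 1 or 2 (highest adjusted p = 0.0967), and versus Solvent it kept its call only when scivMSC replicate 1 was the library left out. Hbb-bs versus Solvent was lost without Solvent replicate 1 or 2 (highest adjusted p = 0.0646), and Hba-a1 and Hbb-bt kept their calls in both comparisons without any 1 library. None was called under TMM in DNCB versus Solvent (27.6% of all genes), scMSC versus DNCB (21.1%), scivMSC versus scMSC (18%) or scMSC versus Solvent (8.5%), and the values in scMSC versus DNCB were 0.65 to 0.79. With library sizes taken from the counts outside the Hba and Hbb genes the 4 values for scivMSC versus DNCB were between 0.34 and 0.82, and none was called where 52.6% of all genes were, although 3 had an adjusted p under 0.05. Hba-a2 did not (adjusted p = 0.261). The rise under TMM was not particular to the globins. For scivMSC versus DNCB 8 of 8 erythroid markers, 5 of 5 platelet markers and 4 of 5 haem synthesis genes were also called higher. In the same comparison 6 of 6 neutrophil markers were called lower.

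The direction for Hba-a2 depended on the scaling. At total scaling it was below 0 in all 6 comparisons, and under TMM it was above 0 in the 5 that involve an MSC-treated group. Hba-a1 for DNCB versus Solvent turned from 0.10 to -0.08, and Hbb-bs for scMSC versus Solvent from -0.10 to 0.40.

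**Figure D3:**
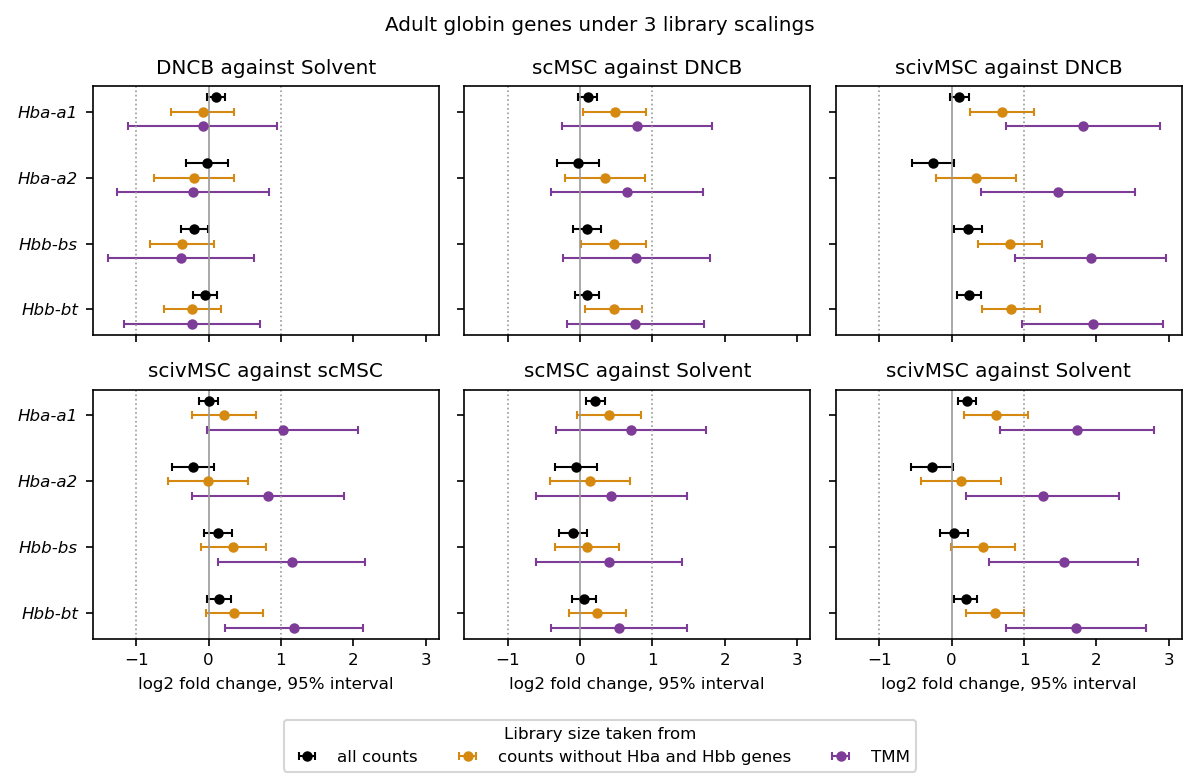
Log2 fold changes (points) with 95% intervals (bars) of the 4 adult globin genes in the 6 group comparisons, with library sizes from all counts (black), from counts outside the Hba and Hbb genes (orange) and from TMM (purple). Dotted lines mark a fold of 2 in either direction. For scivMSC versus DNCB the 4 values lie between -0.25 and 0.24 with all counts and between 1.47 and 1.95 under TMM.

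Ratios within a library do not depend on its scaling. The adult alpha to adult beta ratio, the summed FPKM of Hba-a1 and Hba-a2 over that of Hbb-bs and Hbb-bt, was 0.970, 1.10 and 1.02 in Solvent and 1.02, 1.22 and 1.31 in DNCB. It was 1.23, 1.32 and 0.914 in scMSC and 0.961, 1.03 and 0.971 in scivMSC. The ratio lay near 1 in every library, with 1.09 ± 0.144 over all 12 (SD, n = 12). The 4 libraries above 1.2 were 2 of DNCB and 2 of scMSC, while scMSC replicate 3 had the lowest value. Group means were 1.03 ± 0.0633, 1.18 ± 0.149, 1.15 ± 0.213 and 0.986 ± 0.0343 (SD, n = 3 each), and p was 0.281 when the libraries were permuted over the 4 groups in an exact test (adjusted p = 0.422 over the 3 ratios tested). Every pair of groups overlapped. For scivMSC versus DNCB the log2 difference was -0.26 ± 0.11 (SE; p = 0.2, exact permutation, two-sided).

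The balance within the alpha pair varied more. The Hba-a1 to Hba-a2 ratio was 1.52, 1.53 and 1.25 in Solvent, 1.78, 1.55 and 1.39 in DNCB, 1.49, 1.56 and 2.28 in scMSC and 2.01, 1.82 and 2.18 in scivMSC. The 3 scivMSC values were above every Solvent and DNCB value, and only scMSC replicate 3 was higher. Means were 1.43 ± 0.156, 1.57 ± 0.195, 1.78 ± 0.436 and 2.00 ± 0.183 (SD, n = 3 each). The same exact test gave p = 0.107 for the 4 groups (adjusted p = 0.322). The ratio in scivMSC was 1.40 times that in Solvent and 1.28 times that in DNCB, and both reached 0.1 in the exact two-sided test, the smallest p that 3 against 3 allows, with an adjusted p of 0.6 over the 18 pairs compared. The library of scMSC replicate 3 had the lowest alpha to beta and the highest Hba-a1 to Hba-a2 ratio. Without it the adjusted p of each was 0.0751 in the exact test over the 4 groups. This omission was singled out after seeing the data and gave the lowest value with any 1 library left out. The highest values were 0.709 (alpha to beta) and 0.592 (Hba-a1 to Hba-a2).

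The Hbb-bt to Hbb-bs ratio was 0.586, 0.593 and 0.600 in Solvent, 0.594, 0.690 and 0.705 in DNCB, 0.795, 0.602 and 0.601 in scMSC and 0.713, 0.731 and 0.562 in scivMSC. The Solvent libraries lay within a narrow band, and in each of the other groups some libraries fell in or beside that band while others were higher. Means were 0.593 ± 0.00717, 0.663 ± 0.0604, 0.666 ± 0.112 and 0.669 ± 0.0929 (SD, n = 3 each), and the same exact test gave p = 0.613 (adjusted p = 0.613). Of the 18 pairs over all ratios, 3 did not overlap: both scivMSC pairs of the alpha ratio, and scMSC versus Solvent for this beta ratio, by a margin of 0.600 to 0.601.

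**Figure D4:**
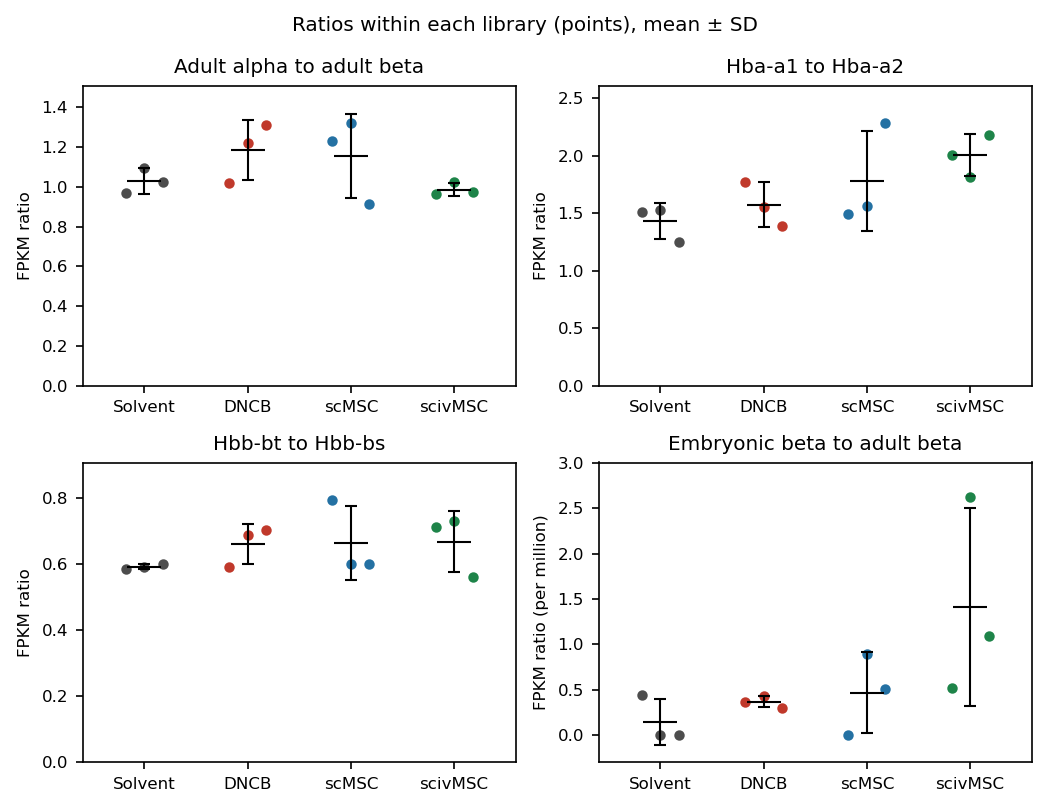
FPKM ratios in each of the 12 libraries (points) by group, with the mean and SD of each group of 3 (black): adult alpha to adult beta, Hba-a1 to Hba-a2, Hbb-bt to Hbb-bs, and embryonic beta (Hbb-y plus Hbb-bh1) to adult beta per M. The alpha to beta ratio lies between 0.914 and 1.32, and the 3 scivMSC points of the Hba-a1 to Hba-a2 ratio lie at or above 1.82.

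The embryonic genes gave very few reads. Among estimated counts from 1 to 12, 29.0% were 4 and 9.75% were 12, so a fragment was taken to be worth 4 estimated counts. The source of these steps is not given in the sources used here, and other values occur as well. On that reading a library with 0 counts allows up to 12, or 3 fragments (counting error only). Hbb-y, which encodes the embryonic epsilon-like chain, had 10, 0 and 0 counts in Solvent, 8, 0 and 6 in DNCB, 0, 17 and 11 in scMSC and 11, 52 and 23 in scivMSC. Only 3 libraries were above 12 counts, 1 of scMSC and 2 of scivMSC. All 3 scivMSC libraries had more than any Solvent or DNCB library, but at the closest by 11 against 10 counts. That gap is less than 1 fragment, and both values are under 12. In FPKM the scivMSC values were 0.282, 1.47 and 0.611, and the highest value elsewhere was 0.424. Hbb-y did not pass the filter. In the edgeR fit without a filter its adjusted p was 0.261 for scivMSC versus DNCB and 0.151 for scivMSC versus Solvent, so the difference did not pass the test at this depth.

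The other 3 were at the limit of detection. Hbb-bh1, the embryonic beta-h1 gene, had 8 counts in DNCB replicate 2 and 0 in the other 11 libraries. Hbb-bh2, a beta-like gene that lies between Hbb-bh1 and Hbb-bs, had 8 counts in Solvent replicate 3, and Hba-x, the embryonic zeta gene, had 4 counts in scMSC replicate 3. No fold can be given for any of them.

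The embryonic to adult ratios were correspondingly small. Hbb-y plus Hbb-bh1 stood at 0.441, 0 and 0 per M adult beta FPKM in Solvent, 0.368, 0.428 and 0.305 in DNCB, 0, 0.898 and 0.513 in scMSC and 0.520, 2.63 and 1.10 in scivMSC. The scivMSC values were above all Solvent and DNCB values and overlapped those of scMSC. A count of 0 allows a ratio of up to 0.443 to 0.611 per M adult beta counts, depending on the library (counting error only). With 3 ratios at 0 no test of the log ratio was made. Hba-x reached 0.130 per M adult alpha FPKM and Hbb-bh2 0.370 per M adult beta FPKM in their single libraries.

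Genes that work with the globins were followed in 3 lists, tested in the same edgeR fit. Haem synthesis (5 of 7 genes passed the filter) makes the haem of haemoglobin. Its erythroid first step, Alas2, was at 4363 ± 348 FPKM in Solvent, 4432 ± 480 in DNCB, 4293 ± 267 in scMSC and 4625 ± 305 in scivMSC (SD, n = 3 each) and was not called in any comparison. None of the 5 genes was called for DNCB versus Solvent, where 20.5% of all genes were. For scMSC versus DNCB, where 26.1% were, 1 of 5 fell, Ppox, the protoporphyrinogen oxidase, at -1.27 (adjusted p = 0.0222). For scivMSC versus DNCB, where 63.4% were, 1 fell, again Ppox, at -1.04 (adjusted p = 0.0246). The list's median was 0.06 beside -1.53 for all genes. Under TMM 4 of 5 were called higher there, beside 20.6% of all genes, with a median of 1.73, and Ppox turned to 0.54. The Ppox call for scMSC was lost without DNCB replicate 1 or 2 or scMSC replicate 2 or 3 (highest adjusted p = 0.112) and for scivMSC without DNCB replicate 1 or 2 or scivMSC replicate 2 or 3 (highest adjusted p = 0.0772).

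Transcription regulators of the globin genes (8 of 12 passed) moved in both directions. Gata1, the erythroid and megakaryocytic zinc finger factor, was at 3.11, 2.29 and 1.50 FPKM in Solvent, 2.15, 2.39 and 1.95 in DNCB, 7.06, 8.24 and 9.31 in scMSC and 9.64, 10.8 and 8.24 in scivMSC. Every MSC-treated mouse was above every other mouse. Of all genes, 5.54% were fully higher in scMSC and 5.41% in scivMSC than in DNCB. Against Solvent the shares were 7% and 6.1%. Gata1 rose by 1.91 ± 0.33 for scMSC and by 2.13 ± 0.33 for scivMSC versus DNCB (SE; adjusted p = 0.000741 and 4.84e-05), and it was called under TMM as well, at 2.61 and 3.87. Against Solvent it was called in scivMSC, at 2.05 (adjusted p = 0.000190), and in scMSC, at 1.82 (adjusted p = 0.0259), the latter lost without Solvent replicate 2 or 3 or any 1 scMSC library (highest adjusted p = 0.142). At total scaling 0 of 8 erythroid and 0 of 5 platelet markers were called higher in either treated group versus DNCB. Of all 5527 genes tested, 70 were in scMSC and 79 in scivMSC. Under TMM 1 of each list was called higher in scMSC, and all 8 and all 5 in scivMSC. Over all genes these counts were 483 and 1137. The part of the markers in the Gata1 values was not tested.

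Tal1, a partner of Gata1 in erythroid complexes, rose by 1.58 in scMSC and by 1.06 in scivMSC versus DNCB (adjusted p = 0.00504 and 0.0172), the second of which was lost without DNCB replicate 2 or 3 or scivMSC replicate 3 (highest adjusted p = 0.0670). Both were called under TMM. For scivMSC versus DNCB 3 regulators fell: Ldb1, which bridges the locus control region and the promoters, at -1.80, Zbtb7a, a repressor of fetal globin in humans, at -2.07, and Klf3, a repressor of the Krüppel-like family, at -1.70 (adjusted p = 0.000871, 0.000279 and 0.000121). None of these 3 was called under TMM, at -0.29, -0.52 and -0.02. Nfe2, which binds the locus control region, rose by 1.95 in DNCB versus Solvent (adjusted p = 0.00779) and was the only regulator called there at total scaling. It is also made in the platelet lineage and in white cells, and markers of both rose in the same comparison: 2 of 5 platelet markers, Gp1bb at 2.00 and Gp9 at 1.28 (adjusted p = 0.000111 and 0.00250), and 6 of 6 neutrophil markers. Of all 5527 genes tested, 864 were called higher in that comparison. The part of these markers in the Nfe2 value was not tested. Counts for the list were 2 higher and 0 lower for scMSC versus DNCB and 2 higher and 3 lower for scivMSC versus DNCB, with medians of -0.43 and -0.60 beside -0.63 and -1.53 for all genes. Over all 5527 genes tested, 70 were called higher and 1375 lower for scMSC versus DNCB. For scivMSC versus DNCB 79 were called higher and 3427 lower, so a fall was the common outcome there.

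Among genes of globin translation and free haemoglobin (5 of 7 passed), Hp and Hmox1 changed most in DNCB versus Solvent and in both treated groups versus DNCB. Hpx, at 0 in 11 libraries, and Cd163, at most at 0.0588 FPKM, did not pass the filter. Hp, which encodes haptoglobin, the plasma binder of free haemoglobin, was at 15.8, 15.7 and 7.50 FPKM in Solvent, 146, 244 and 166 in DNCB, 22.7, 17.5 and 23.6 in scMSC and 17.2, 4.74 and 11.5 in scivMSC. Every DNCB library was above all others. Groups did not overlap in 41.5% of all genes for DNCB versus Solvent, 55.3% for scMSC versus DNCB and 73.3% for scivMSC versus DNCB. Hp rose by 3.84 ± 0.43 in DNCB versus Solvent (SE; adjusted p = 1.15e-05). It fell in both treated groups, with -3.14 in scMSC and -4.06 in scivMSC relative to DNCB (adjusted p = 0.000121 and 4.63e-06). Hmox1, the inducible haem oxygenase, rose by 2.64 in DNCB (adjusted p = 0.000210) and was at -2.15 in scMSC and -3.38 in scivMSC versus DNCB (adjusted p = 0.00117 and 9.74e-06). Both genes are also expressed in neutrophils or macrophages, and the neutrophil markers moved the same way: 6 of 6 were called higher in DNCB and 6 of 6 lower in each MSC-treated group. Of all 5527 genes tested, 864 were called higher in DNCB versus Solvent. Lower calls numbered 1375 in scMSC and 3427 in scivMSC versus DNCB. The part of the neutrophil markers in these values was not tested.

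The remaining genes of that list were closer to the globins. Blvrb, the biliverdin reductase B of red cells, rose by 1.23 in scivMSC versus DNCB (adjusted p = 0.00638) and by 2.89 under TMM. Eif2ak1, the haem-regulated kinase that limits globin translation, was at -0.19 and Ube2o, the ubiquitin ligase that clears unpaired alpha chains in reticulocytes, at 0.13 (adjusted p = 0.614 and 0.597). Under TMM both were called higher there, at 1.50 and 1.82. The erythroid marker list had 0 of 8 tested genes called in any of the 6 comparisons at total scaling, where 0.651% to 63.4% of all genes were. All 8 were called higher for scivMSC versus DNCB under TMM, beside 20.6% of all genes. Of the other marker lists there, 5 of 5 platelet markers were called higher and 0 T cell or B cell markers were called. Lower calls fell on 6 of 6 neutrophil and 1 of 3 monocyte markers.

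**Figure D5:**
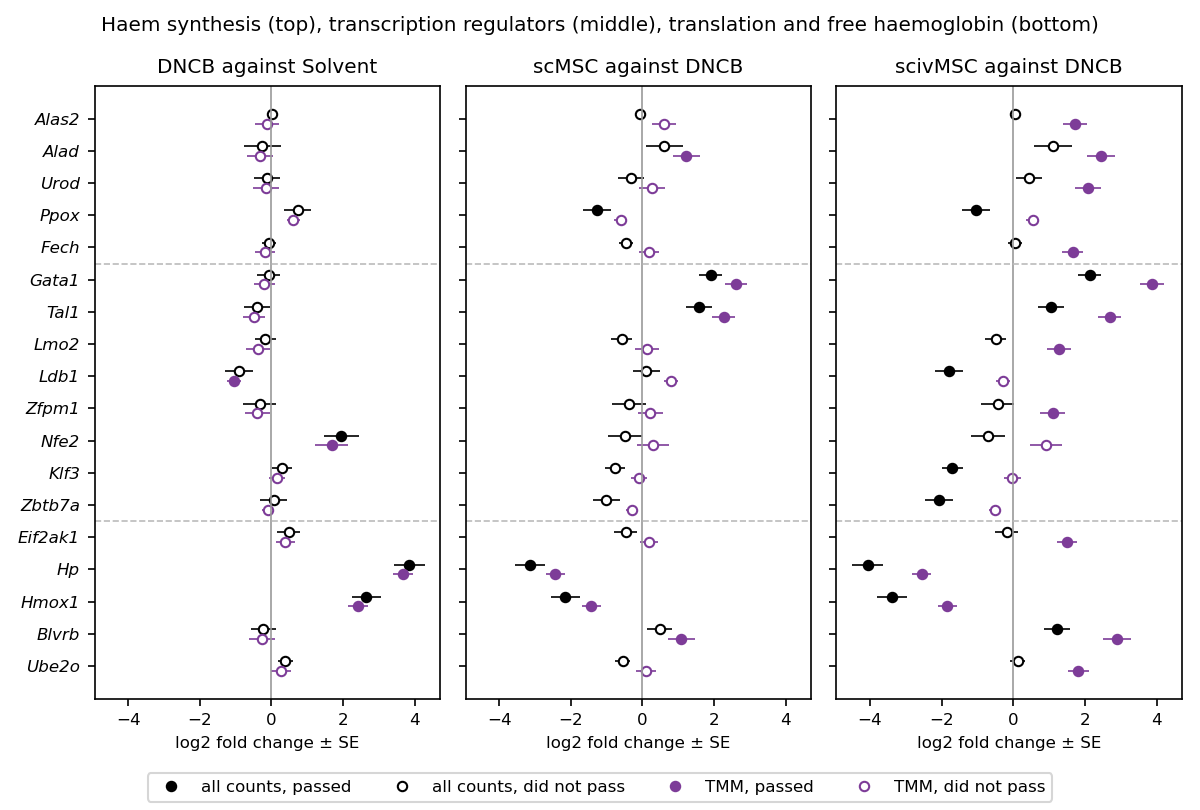
Log2 fold changes (points) with SE (bars) of 5 haem synthesis genes, 8 transcription regulators and 5 genes of globin translation and free haemoglobin in 3 comparisons, with library sizes from all counts (black) and TMM (purple). Filled points passed an adjusted p under 0.05 with a fold over 2. Gata1 lies at 1.91 and 2.13 in the MSC-treated groups with all counts, and Hp at 3.84 in DNCB versus Solvent.

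The genes most like each adult globin were sought among 5020 named, tested genes by the root mean square difference of centred log2(FPKM + 1) profiles over the 12 libraries. For Hba-a1 they were Mbnl2, Marchf2 and Btg3, at 0.10, 0.11 and 0.11. For Hba-a2 they were Akt2-ps, Ube2l6 and Ifit1, at 0.19, 0.19 and 0.21. For Hbb-bs they were Cd59b, Oaz1 and Bola3, at 0.13, 0.14 and 0.15, and for Hbb-bt Marchf2, Isca1 and Pkn2, at 0.08, 0.09 and 0.10. A low difference here mostly means a profile that is flat on this scale, since the globins themselves varied with an SD of 0.11 to 0.23 and the median gene differed from them by 0.49 to 0.54. The added 1 narrows the spread of genes near 1 FPKM. Akt2-ps ranged from 0.502 to 1.49 FPKM, Mbnl2 from 0.623 to 1.21, Cd59b from 0.635 to 1.26 and Pkn2 from 0.741 to 1.37. The remaining matches had means from 1.58 (Ifit1) to 586 FPKM (Ube2l6). The other globins were no nearer: Hbb-bt stood at 0.14 from Hba-a1 and at 0.16 from Hbb-bs, and Hba-a1 at 0.25 from Hba-a2.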

How the data were processed

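The 12 whole blood RNA-seq libraries were grouped by the labels. The authors deposited 1 table with FPKM (per gene length and library size) and whole-number estimated counts per gene, 24 value columns, all used. The deposited counts rise mostly in steps of 4, with 29.0% of values from 1 to 12 equal to 4, so depth is about 13.0 to 16.3 M fragments (M, 1000000) if 1 fragment is 4 counts, which no source used here states. The submitters' processing notes name Bowtie 0.12.2, HISAT2 2.0, StringTie 1.3.0 and mm8. Roles and strand use are not given in the sources used here. Multi-mapping within globin pairs can shift reads between copies.

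Counts were tested with edgeR 4.0.16 (quasi-likelihood, total scaling, 1 mean per group over all 12 libraries, 5527 genes with at least 1 FPKM in at least 3 libraries, Benjamini-Hochberg). Alternatives used TMM, DESeq2 1.42.0, limma 3.58.1 on log2(FPKM + 1) or with 0.1, other filters, and each library left out. Ratios were tested by exact permutation over 369600 splits. Scripts were tested on simulated data. Named genes are the 9 members, the fixed pathway and marker lists and the 3 most like genes per tested member (unnamed gene models and other Hba or Hbb genes left out). Members and lists were chosen with earlier results of these data known. Differences between libraries of a group are taken to be between mice. Promoter motifs were not run. 1 gene of the haem synthesis list is not reported here.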

Additional observations from a re-analysis of the deposited data

How the results depend on the processing

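Totals fix the adult globins near their share of a library, so their values at total scaling and under TMM answer different questions. Counts of members called changed from 0 under 3 alternatives. For scivMSC versus DNCB 4 were called under TMM, DESeq2 size factors in edgeR and the DESeq2 test. For scivMSC versus Solvent the counts were 4, 3 and 4, and for scivMSC versus scMSC the DESeq2 test called 3. They stayed at 0 under every other alternative at total scaling, each library left out in turn included. With TMM and 1 library left out, a choice made after seeing the data, the counts ranged from 3 to 4 (scivMSC versus DNCB), 2 to 4 (scivMSC versus Solvent) and 0 to 3 (scivMSC versus scMSC, with 3 only without scivMSC replicate 1). Counts of pathway genes called went from 3 to 11 (scivMSC versus scMSC), 1 to 4 (scMSC versus Solvent) and 5 to 13 (scivMSC versus Solvent) under TMM, while those over all genes went from 1701 to 994, 36 to 470 and 3415 to 1981. Adjusted p values of the ratios without 1 library ranged from 0.0751 to 0.709 (alpha to beta), 0.0751 to 0.592 (Hba-a1 to Hba-a2) and 0.378 to 0.769 (Hbb-bt to Hbb-bs), and none passed 0.05 under any alternative. With 0.1 added to FPKM the mean Hba-x and Hbb-bh2 ratios went from 0.0109 and 0.0308 to 0.193 and 0.228 per M (1000000), which is the added constant. Ahsp ratios could not be computed, and ratios with zeros have no log or blocked test.

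Of 552 log2 fold changes of adult globins under alternatives, 41 reversed in sign. For Hba-a1 in DNCB versus Solvent they were -0.0801 under TMM, -0.0363 with DESeq2 size factors, -0.0809 with totals outside the Hba and Hbb genes and -0.0363 in DESeq2. Hba-a2 gave, in the same order, 0.65, 0.60, 0.34 and 0.60 for scMSC versus DNCB, 1.47, 1.47, 0.34 and 1.47 for scivMSC versus DNCB, 0.43, 0.43, 0.13 and 0.43 for scMSC versus Solvent and 1.26, 1.30, 0.13 and 1.30 for scivMSC versus Solvent. For scivMSC versus scMSC it gave 0.82 under TMM, 0.87 with DESeq2 size factors and 0.87 in DESeq2. Hbb-bs for scMSC versus Solvent gave 0.40, 0.39, 0.0935 and 0.39. Hba-a1 for scivMSC versus scMSC was -0.0051 in limma with either pseudocount. Without 1 library, Hba-a2 ranged from -0.13 to 0.0720 for DNCB versus Solvent, -0.14 to 0.15 for scMSC versus DNCB and -0.16 to 0.13 for scMSC versus Solvent. Hba-a1 ranged from -0.0188 to 0.0336 for scivMSC versus scMSC, and Hbb-bs from -0.0128 to 0.20 for scMSC versus DNCB and -0.0284 to 0.0598 for scivMSC versus Solvent. Adjusted p values for scivMSC versus DNCB rose over 0.05 with no filter for Hbb-bs (0.0666) and Hbb-bt (0.0501) and with a mean FPKM of at least 5 for Hbb-bs (0.0605). For Hbb-bt versus Solvent they rose to 0.112 and 0.0566. The cause of these changes beyond the scaling itself was not tested.

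Replicate numbers do not pair the mice: 3 of 18 same-number pairs had a correlation over 0.1, with a range of -0.29 to 0.16. With the replicate number as a block 0 members were called in each comparison, and the ratios' adjusted p values were 0.409, 0.375 and 0.665. The adult globins had 0 calls to lose. Over all genes the block did change calls, from 36 to 11 for scMSC versus Solvent. The count rose in every other comparison, for scivMSC versus scMSC from 1701 to 1922.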

Other observations

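The theta-like genes of the alpha cluster, Hbq1b between Hba-a1 and Hba-a2 and Hbq1a after Hba-a2, are not among the 9 genes and were looked at after their values were seen. Hbq1b was at 51.5 ± 5.51 FPKM in Solvent, 44.1 ± 6.87 in DNCB, 57.5 ± 9.48 in scMSC and 71.7 ± 9.04 in scivMSC (SD, n = 3 each), and all 3 scivMSC libraries were above every Solvent and DNCB library. Of all genes, 6.1% were fully higher in scivMSC than in Solvent and 5.41% than in DNCB. In the edgeR fit at total scaling Hbq1b was at 0.70 ± 0.26 for scivMSC versus DNCB (SE; adjusted p = 0.0241), short of a fold of 2. Hbq1a was at 32.0 ± 3.14, 26.8 ± 2.72, 40.2 ± 6.65 and 32.2 ± 3.66 FPKM (SD, n = 3 each), with an adjusted p of 0.127 for scMSC versus DNCB. Both genes together stood at 158 ± 15.9 per M adult alpha FPKM (M, 1000000) in Solvent, 128 ± 6.57 in DNCB, 171 ± 28.1 in scMSC and 191 ± 17.2 in scivMSC (SD, n = 3 each). The DNCB libraries, at 121 to 133, were below all others, which began at 139. No test of this ratio was made. In the edgeR fit at total scaling the adjusted p for DNCB versus Solvent was 0.565 for Hbq1a and 0.592 for Hbq1b, and the FPKM of the groups overlapped. The rows Hba-ps4 and Hbb-bh0, named as a pseudogene and a further beta-like sequence, had 8 and 4 counts in all, each in 2 libraries.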
